A study of Mus musculus with 6 samples.

Results

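Cell cycle and DNA replication genes of the embryonic mouse brain were followed here as a readout of dividing cells, with S phase set against G2/M, in female and male samples. The group holds 42 genes that were listed by their known function, with earlier results of these data known: 22 act in S phase and 20 in G2 or mitosis. A RefSeq transcript ID was found in the deposited counts for 36 of the 42 genes, which together had 41 IDs (23 for S phase and 18 for G2/M) among 23485 in all. Of these 41 IDs, 30 had enough counts to be tested, 1 for each of 30 genes (14 S phase and 16 G2/M), among 13374 tested IDs. The 6 genes with no ID (Tyms, Slbp, Cdc45, Fen1, Bub1 and Tpx2) were not analysed here.

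RNA-seq of whole brain was performed at E15.5, an embryonic age in days, on 3 female and 3 male samples from wild-type mice of the C57BL/6 strain. Each sample was RNA pooled from 2 to 3 embryos, and embryos were sexed from their gonads. Neither sex carried a transgene or received a treatment, and sex was the only difference that the labels gave between the groups. Values are read counts per transcript ID, given below as CPM (the share of the library's counts, in parts of 1000000) after library totals were adjusted with TMM, a method that sets the totals so that most genes do not differ between samples.

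A dividing cell copies its DNA in S phase and separates the copies in mitosis, with a gap phase (G1 or G2) before each. Origins of replication are licensed when Cdt1 and Cdc6 load the ring of MCM proteins onto DNA. Cyclin E with its kinase and the GINS complex then help to turn the ring into an active helicase. Entry into mitosis is driven by Cdk1 with cyclins A and B, and exit follows when the anaphase promoting complex marks cyclin B for destruction. In the brain at this age most dividing cells are radial glia, which line the ventricles, and intermediate progenitors, and the neurons they give rise to do not divide. Transcripts of S phase genes are largely controlled by E2F factors, and those of G2/M genes by a complex that binds the cell cycle genes homology region (CHR), often beside CCAAT boxes that bind NF-Y.

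The promoters of the 6 genes with the smallest sex-comparison p-values are shown because they carry these control letters in different arrangements. The sequences are the 250 bases before the RefSeq start of each gene, from RefSeq on GRCm38.p6, written 5′ to 3′ on the strand of the gene. Capitals mark 3 kinds of motif, each searched on both strands. The CHR was searched as TTTGAA and in its variant form TTTAAA. The CCAAT box appears as ATTGG where it lies on the opposite strand. The E2F site was searched in the forms TTTCCCGC, then TTTGGCGC, then TTTCGCGC and lastly TTTGCCGC. No marked motif overlaps another.
Pcna (chr2:132253181-132253430, minus strand): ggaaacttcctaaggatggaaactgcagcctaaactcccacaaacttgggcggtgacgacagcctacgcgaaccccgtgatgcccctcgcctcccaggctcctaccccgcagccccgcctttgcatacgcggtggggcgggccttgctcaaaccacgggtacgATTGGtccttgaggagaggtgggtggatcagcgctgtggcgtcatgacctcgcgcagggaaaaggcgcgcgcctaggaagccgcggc
Mki67 (chr7:135716380-135716629, minus strand): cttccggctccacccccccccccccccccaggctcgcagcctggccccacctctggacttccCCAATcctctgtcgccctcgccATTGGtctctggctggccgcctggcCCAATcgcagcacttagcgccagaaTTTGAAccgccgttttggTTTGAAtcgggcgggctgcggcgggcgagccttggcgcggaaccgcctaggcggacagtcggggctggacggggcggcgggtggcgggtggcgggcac
Cdk1 (chr10:69352913-69353162, minus strand): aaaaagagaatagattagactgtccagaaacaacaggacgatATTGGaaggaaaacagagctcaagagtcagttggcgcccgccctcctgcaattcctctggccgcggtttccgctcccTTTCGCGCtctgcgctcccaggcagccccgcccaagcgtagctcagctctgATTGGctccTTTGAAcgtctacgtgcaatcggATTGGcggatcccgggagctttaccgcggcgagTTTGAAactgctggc
Cdc20 (chr4:118437344-118437593, minus strand): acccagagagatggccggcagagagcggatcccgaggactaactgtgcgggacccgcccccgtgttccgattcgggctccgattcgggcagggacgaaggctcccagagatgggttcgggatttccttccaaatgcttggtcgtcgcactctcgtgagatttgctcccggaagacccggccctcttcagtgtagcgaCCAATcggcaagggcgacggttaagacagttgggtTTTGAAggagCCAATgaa
Cenpe (chr3:135212313-135212562, plus strand): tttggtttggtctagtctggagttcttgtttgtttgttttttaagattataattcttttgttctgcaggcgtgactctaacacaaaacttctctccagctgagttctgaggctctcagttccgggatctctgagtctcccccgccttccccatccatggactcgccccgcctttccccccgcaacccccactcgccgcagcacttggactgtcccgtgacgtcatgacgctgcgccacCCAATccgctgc
Cenpf (chr1:189688087-189688336, minus strand): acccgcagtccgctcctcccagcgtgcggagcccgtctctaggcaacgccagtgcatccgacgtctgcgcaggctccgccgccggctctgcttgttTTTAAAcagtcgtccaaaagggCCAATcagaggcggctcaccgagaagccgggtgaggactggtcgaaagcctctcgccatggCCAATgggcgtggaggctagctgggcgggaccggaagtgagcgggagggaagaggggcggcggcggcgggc

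Pcna, the S phase gene among them, held 1 CCAAT box, 87 bases before the start, and no CHR in this window. Mki67 held a pair of CHRs, with first bases 116 and 98 bases before the start, and 3 CCAAT boxes further upstream. Cdk1 held a pair of CHRs, 3 CCAAT boxes and the single E2F site found among the 6 promoters, 131 bases before the start. Cdc20 held 1 CHR, 18 bases before the start, between a pair of CCAAT boxes. Cenpf held 1 CHR in the printed bases, 154 bases before the start, and a pair of CCAAT boxes, and Cenpe held 1 CCAAT box, 12 bases before the start. Both also had a CHR just after the start, at base 15 in Cenpe and base 3 in Cenpf, outside the bases printed. Over windows of 300 bases (250 before and 50 after each start), 15 of 17 G2/M windows (88.2%) held a CHR, against 6 of 22 S phase windows (27.3%) and 27.6% of 32851 windows of all genes. A CCAAT box was present in 14 of 17 G2/M windows (82.4%), 12 of 22 S phase windows (54.5%) and 37.4% of all windows. An E2F site was present in 7 of 22 S phase windows (31.8%), 1 of 17 G2/M windows (5.88%) and 2.26% of all windows. The 39 windows belong to the 35 genes that had a promoter in the sequence table, and a match of letters is a description and not a binding site.

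Library totals ranged from 4908565 to 10294443 counts. Xist had 6153 to 10001 counts in female samples, against 4 to 7 in male samples, and Ddx3y and Kdm5d had 595 to 1970 counts in male samples and at most 1 in female samples, as the labelled sexes require. Markers of several cell types were summed to see which cells the dissected tissue held. Markers of radial glia summed to 3154 to 3605 CPM over the 6 samples, those of neurons to 2883 to 4195 CPM, and those of intermediate progenitors to 200.2 to 250.4 CPM. Markers of mesenchyme and cartilage summed to 17667 to 26038 CPM. Nearly all of that sum was Col1a1, Col1a2 and Col3a1, collagens of connective tissue, and the cartilage markers had lower values: Matn1 averaged 79.4 CPM in female and 46.3 in male samples, the main ID of Col9a1 54.4 and 28.9, and Col2a1 10.8 and 7.98. Scaled to transcript length, Col1a1 had 686 to 1418 CPM per kb, and Tubb3, a tubulin of neurons, had 658 to 1057. The samples labelled whole brain thus also held transcripts of connective tissue. The share of the cell cycle transcripts that came from such tissue was not tested.

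How well a cell cycle gene was measured went with the number of transcripts annotated for it. All 25 genes with 1 curated RefSeq transcript had an ID that was tested, with 1258 to 60599 counts over the 6 samples together (median 6412). Of the 17 genes with 2 or more curated transcripts, 6 had no ID, 5 had a tested ID, and 10 were listed with fewer than 1000 counts in total. Over all coding genes of the RefSeq table, 65.9% of those with 1 curated transcript and 37% of those with 2 or more had a tested ID. The 5 tested genes with several transcripts were Mcm6, Mcm7, Gins1, Birc5 and Kif20b, and apart from Kif20b these had the fewest counts of the 30. How reads shared by several transcripts were counted is not stated in the study, and its part in these counts was not tested.

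**Figure D1:**
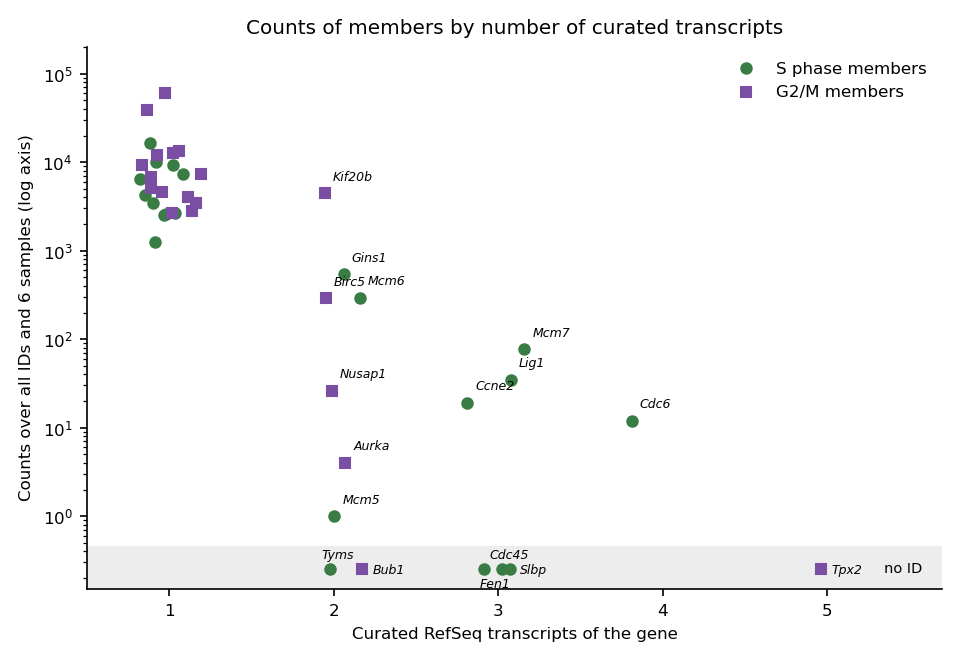
Counts of each of the 42 genes over all its IDs and the 6 samples (vertical, log axis) against the number of curated RefSeq transcripts of the gene (horizontal, with points spread sideways for legibility), with genes that had no ID in the grey band. The 25 genes with 1 transcript lie between 1258 and 60599 counts, while most genes with several transcripts lie far lower or have no ID.

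The low counts fell on genes that dividing cells need. Mcm5, a subunit of the MCM ring, was listed with 0 counts in 5 samples and 1 count in male sample 1, while its partners Mcm2, Mcm3 and Mcm4 had at least 7252 counts each in total. Cdc6, the loader of the ring, had 11 and 1 counts on its 2 IDs over all samples. Lig1, the ligase that joins Okazaki fragments, had 8, 12 and 15 counts on its 3 IDs. Ccne2, a cyclin E, had 19 counts, Aurka, a kinase of the spindle poles, had 4, and Nusap1, a protein that bundles spindle microtubules, had 26. None of these 6 genes reached 10 counts in any sample on any ID, so they were not tested, and their counts cannot be read as absence of the transcript. A count of 0 allows up to 3 counts, or 0.291 to 0.611 CPM at these totals, for counting error only. Mcm7 had a second ID with 28 counts and Gins1 a second ID with 2 counts, both also untested.

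No cell cycle gene passed the test between the sexes without RUVr factors and with low counts removed. In edgeR's quasi-likelihood test of male against female, 0 of 30 IDs passed an adjusted p of 0.05, with adjusted p (Benjamini-Hochberg over 13374 IDs) from 0.341 to 0.982, and 4 of 13374 IDs (0.0299%) passed in the whole table. DESeq2 also called 0 of the 30, of which 5 had no adjusted p. Fits with RUVr factors, which the study also used, called up to 4: DESeq2 with 1 factor called Pcna, Mki67, Cenpe and Cenpf (370 IDs in the whole table), and edgeR with 2 factors called Mki67, Cdc20, Cenpe and Cenpf (475 IDs), while edgeR with 1 factor called 0. With no filter on low counts edgeR called 1, Pcna. At an unadjusted p under 0.05 there were 6 of 30 IDs (20%), beside 11.5% of all tested IDs. Pcna, Cdk1 and Cdc20 were on the higher side in males, where 6.68% of all tested IDs were, and Mki67, Cenpe and Cenpf on the lower side, where 4.82% were. Since no adjusted p was under 0.05 in that edgeR test, these 6 genes are described and not called changed. In bulk samples of this kind, fewer cells of a type and less RNA per cell cannot be told apart. Without female sample 1, or without female sample 2, the count at an unadjusted p under 0.05 was 3 (Pcna, Cenpe and Cenpf both times), and the share over all tested IDs was 5.73% and 5.61%.

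The absence of a call came with fairly narrow intervals. For the 26 tested IDs with at least 1000 counts in total, the 95% interval of the log2 fold change (male minus female) had a half-width of 0.24 to 0.43, with a median of 0.30. All 26 intervals lay between -0.75 and 0.90, so a doubling or halving between the sexes lay outside each of them. The biological coefficient of variation, the spread between samples beyond counting error, had a median of 0.13 over the cell cycle IDs and 0.194 over all tested IDs. The p-values measure the spread between these pooled samples.

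**Figure D2:**
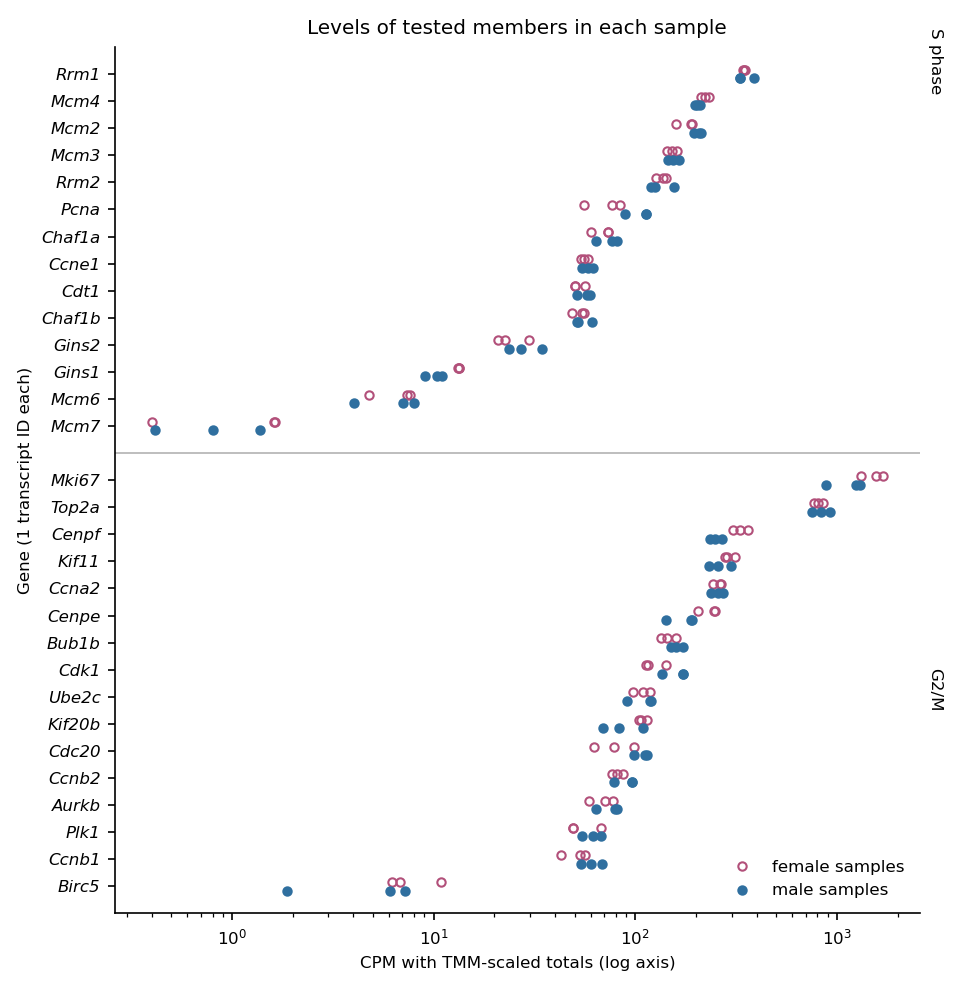
Level of each tested gene in each sample as CPM with TMM-scaled totals (horizontal, log axis), with open circles for the 3 female samples and filled circles for the 3 male samples, S phase genes above and G2/M genes below. The sexes do not overlap for 7 of the 30 genes, beside 17.1% of all tested IDs, and the genes with the fewest counts (Mcm7, Mcm6, Birc5 and Gins1) lie to the left.

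The MCM ring, the core of the replicative helicase, was led by Mcm4, Mcm2 and Mcm3, with averages of 59.1, 56.9 and 51.4 CPM per kb of transcript. Those genes have 1 curated transcript each, while Mcm5, Mcm6 and Mcm7 have 2 or 3. How shared reads were counted is not stated, so this is an order of counts and may not be one of expression. Mcm4 (NM_008565) had 213, 231 and 221 CPM in female samples 1, 2 and 3. In male samples 1, 2 and 3 it had 202, 197 and 208 CPM. Mcm2 (NM_008564) had 188, 159 and 191 CPM in the female and 212, 207 and 195 in the male samples. The sexes did not overlap for either, but the order was opposite: Mcm4 was lower in all male samples, at a log2 fold change of -0.13 (SE 0.11), and Mcm2 was higher in all, at 0.19 (SE 0.12; 0.10 without female sample 2). Neither difference passed the test (edgeR adjusted p 0.67 and 0.557). Mcm3 (NM_008563) had 144, 152 and 161 CPM in female samples, against 154, 165 and 146 in male samples, which overlapped. Mcm6 (NM_001313695) was far lower, at 4.04 to 7.95 CPM, and Mcm7 (NM_001356577) had 2 to 16 counts per sample, so its log2 fold change of -0.57 had an SE of 0.78 and ran from -1.02 without male sample 2 to -0.24 without male sample 1. Of the 5 tested MCM genes 2 were higher and 3 lower in males (median log2 fold change -0.05).

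Of the genes that license and fire origins 4 were tested, and their log2 fold changes ran from -0.40 to 0.23. Ccne1 (NM_007633), the cyclin that brings cells into S phase, had 53.6, 58.5 and 56.0 CPM in female and 61.4, 58.6 and 54.4 CPM in male samples. Cdt1 (NM_026014), which loads the MCM ring, had 50.1, 50.1 and 56.6 CPM in female and 59.5, 57.6 and 51.1 CPM in male samples. Both overlapped between the sexes. Gins1 and Gins2 code for subunits of the same complex. Gins1 (NM_027014) had 13.3, 13.4 and 13.3 CPM in female samples, against 10.3, 11.01 and 9.01 in male samples, a log2 fold change of -0.40 (SE 0.21, edgeR adjusted p 0.481) with no overlap. Gins2 (NM_178856) had 29.7, 20.8 and 22.7 CPM in female and 34.6, 27.2 and 23.7 in male samples, with a log2 fold change of 0.23 (SE 0.20) that ran from 0.06 without male sample 1 to 0.39 without female sample 1.

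Pcna had the highest log2 fold change of the 30 genes. It codes for the sliding clamp that holds the polymerase at the fork, and the gene lies at chr2:132074898-132079050 on the minus strand of NCBIM37, the build of the files. Pcna (NM_011045) had 55.6, 76.5 and 84.1 CPM in female samples, against 114, 112 and 89.0 in male samples. All male samples were above all female samples, with male sample 3 close to female sample 3. The means were 72.1 ± 14.8 and 105 ± 13.9 CPM (SD, n = 3 each), a 1.45-fold difference with a log2 fold change of 0.54 (95% interval 0.18 to 0.90; edgeR unadjusted p 0.00654, adjusted p 0.341). That value ran from 0.38 without female sample 1 to 0.68 without female sample 3. Chaf1a and Chaf1b, which place histones on new DNA behind the fork, had log2 fold changes of 0.10 and 0.05. With 1 sample left out Chaf1a ran from 0.01 (without female sample 2) to 0.20 (without male sample 2). Chaf1a (NM_013733) had 60.3 to 73.6 CPM in female and 64.1 to 81.0 CPM in male samples, and Chaf1b (NM_028083) had 48.3 to 55.9 and 51.5 to 60.6.

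Ribonucleotide reductase, the enzyme that makes the building blocks of DNA, had log2 fold changes near 0 for both of its subunits. Rrm1 (NM_009103), the large subunit, had 342, 344 and 349.8 CPM in female samples, against 387, 329.8 and 332 in male samples. Rrm2 (NM_009104), the small subunit that is made in S phase, had 127, 137 and 143 CPM in female and 156, 119 and 126 in male samples. Male sample 1 was the highest of the 6 for both subunits, and the other male samples were below the female range. The log2 fold changes were 0.02 (SE 0.12) and -0.02 (SE 0.13).

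Among the drivers of mitosis, Cdk1 stood on the higher side in males and its cyclins had smaller differences. Cdk1 (NM_007659), the kinase that starts mitosis, had 115, 113 and 142 CPM in female and 173, 173 and 136 CPM in male samples. Male samples 1 and 2 were above all female samples, and male sample 3 lay below female sample 3, so the groups overlapped. The means were 123.3 ± 16.2 and 160.7 ± 20.998 CPM (SD, n = 3 each), with a log2 fold change of 0.38 (95% interval 0.07 to 0.68; edgeR unadjusted p 0.0195, adjusted p 0.375). Ccnb1 (NM_172301), a cyclin B, had 42.9, 56.5 and 53.0 CPM in female and 53.7, 68.0 and 60.5 in male samples, with a log2 fold change of 0.26 (SE 0.15; 0.15 without female sample 1). Ccna2 (NM_009828), the cyclin A that serves both S phase and mitosis, had 243, 265 and 263 CPM in female and 256, 271 and 238 in male samples, with -0.01 (SE 0.11). The sexes overlapped for both cyclins, and Ccnb2 (NM_007630) overlapped as well, with 76.5 to 87.1 and 78.1 to 96.2 CPM.

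The anaphase promoting complex was represented by its activator and its ubiquitin conjugating enzyme. Cdc20 (NM_023223), the activator, had 78.6, 62.7 and 98.6 CPM in female and 114, 112 and 98.1 CPM in male samples. Female sample 3 lay just above male sample 3, so the groups overlapped, and the means were 79.99 ± 18.003 and 108.01 ± 8.64 CPM (SD, n = 3 each). Its log2 fold change was 0.43 (95% interval 0.08 to 0.77; edgeR unadjusted p 0.0202, adjusted p 0.376), and it was 0.28 without female sample 2. Ube2c (NM_026785) had 109, 119 and 97.8 CPM in female and 120.3, 118 and 91.5 in male samples, with a log2 fold change of 0.02.

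Kinases of the spindle and its checkpoint overlapped between the sexes. Bub1b (NM_009773), which codes for the checkpoint protein BubR1, had 144, 134 and 158 CPM in female and 159.7, 172 and 150.3 CPM in male samples. Plk1 (NM_011121), a kinase of centrosome maturation, had 48.9, 49.3 and 67.3 CPM in female and 67.3, 61.6 and 54.5 in male samples. Aurkb (NM_011496), the kinase of the chromosomal passenger complex, had 70.6, 59.1 and 77.5 CPM in female and 79.5, 80.7 and 63.6 in male samples. Each of these 3 had a log2 fold change between 0.11 and 0.14. The values of Bub1b, Plk1 and Aurkb were 0.08, 0.06 and 0.00 without female sample 2 and 0.22, 0.32 and 0.21 without female sample 3. With any 1 sample left out they ran from 0.08 to 0.22, 0.06 to 0.32 and 0.00 to 0.22. Birc5 (NM_001012273), which codes for survivin of the same complex, was low, with 10.9, 6.79 and 6.23 CPM in female and 1.86, 7.19 and 6.10 in male samples, and its log2 fold change of -0.67 had an interval of -1.60 to 0.26. That value was -0.26 without male sample 1, -0.38 without female sample 1 and -0.98 without male sample 2.

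The motors and large proteins of the kinetochore and spindle lay on the lower side in males for all 4 that were tested. Cenpf (NM_001081363), a very large protein of the outer kinetochore, had 329, 363 and 304 CPM in female samples, against 235, 248 and 268.5 in male samples. Cenpe (NM_173762), the motor that moves chromosomes to the spindle equator, had 249.9, 244 and 205 CPM in female and 142, 191 and 189 in male samples. The sexes did not overlap for either gene. Cenpf had means of 332 ± 29.3 and 251 ± 16.9 CPM (SD, n = 3 each) and a log2 fold change of -0.41 (95% interval -0.66 to -0.15; edgeR unadjusted p 0.0049, adjusted p 0.341). Cenpe had means of 233 ± 24.8 and 174 ± 27.7 CPM and a log2 fold change of -0.42 (95% interval -0.73 to -0.11; edgeR unadjusted p 0.0114, adjusted p 0.344). For Cenpe this ran from -0.50 without female sample 3 to -0.29 without male sample 1. Kif20b (NM_183046), a motor of cytokinesis, had 106, 114 and 104 CPM in female and 68.8, 109 and 82.9 in male samples, with male sample 2 inside the female range. Kif11 (NM_010615), the motor that pushes spindle poles apart, had 285, 313 and 277 CPM in female and 231, 297 and 256 in male samples, and its log2 fold change was -0.16 (SE 0.13). Without male sample 1 the log2 fold change was -0.17 for Kif20b (from -0.31) and -0.08 for Kif11, and without male sample 2 it was -0.50 and -0.25.

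Mki67, the gene of the proliferation antigen Ki-67, had the most counts of the 30 genes, and Top2a, the topoisomerase that untangles sister chromatids, had the highest level per length. The average was 157 CPM per kb for Top2a and 133 for Mki67, against 86.9 for Rrm1, 86.4 for Ccna2 and 58.3 for Pcna. Mki67 (NM_001081117) had 1567, 1693 and 1323 CPM in female samples, against 885, 1299.5 and 1246 in male samples. Male sample 1 stood well below the rest, and male sample 2 lay just below female sample 3. The means were 1527 ± 188 and 1144 ± 226 CPM (SD, n = 3 each), with a log2 fold change of -0.42 (95% interval -0.75 to -0.08; edgeR unadjusted p 0.019, adjusted p 0.371). Without male sample 1 the log2 fold change of Mki67 was -0.27 (unadjusted p 0.0503). Top2a (NM_011623) had 768, 809 and 849 CPM in female and 751, 920.2 and 833 in male samples, with a log2 fold change of 0.05 (SE 0.12).

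**Figure D3:**
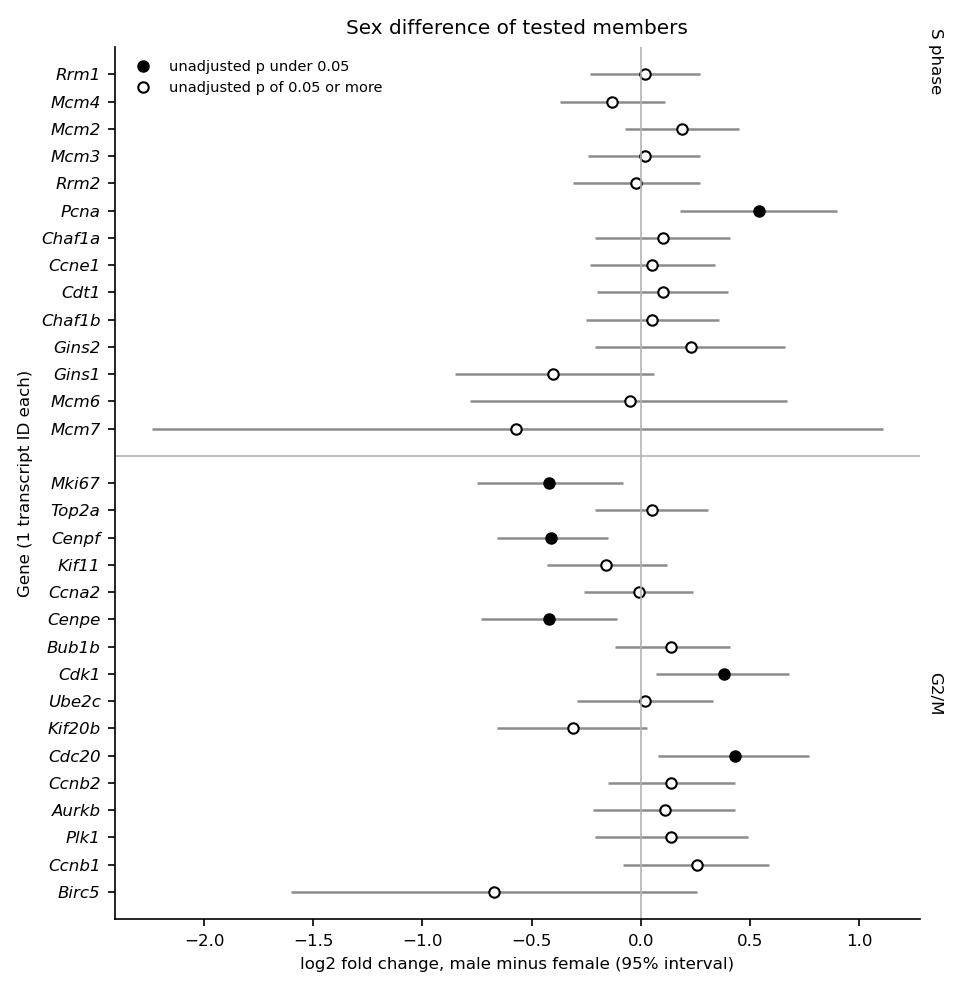
log2 fold change, male minus female, of each tested gene (horizontal) with its 95% interval from edgeR, S phase genes above and G2/M genes below in the order of the plot of levels, with filled points for an unadjusted p under 0.05. The 6 filled points are Pcna, Cdk1 and Cdc20 to the right of 0 and Mki67, Cenpf and Cenpe to the left, and no gene passed the adjusted threshold in this fit.

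S phase genes were then set beside G2/M genes. The median log2 fold change was 0.04 over 14 S phase IDs (range -0.57 to 0.54) and 0.03 over 16 G2/M IDs (range -0.67 to 0.43), beside -0.01 over all tested IDs. At an unadjusted p under 0.05 there were 1 of 14 S phase IDs (7.14%) and 5 of 16 G2/M IDs (31.2%), beside 11.5% of all tested IDs, and the difference between these shares was not tested. In each group 9 IDs were higher in males, with 5 lower in S phase and 7 lower in G2/M. Both medians were -0.02 with upper-quartile in place of TMM factors, beside -0.06 over all tested IDs. With 1 sample left out the S phase median ran from 0.01 (without male sample 1) to 0.07 (without female sample 3 or male sample 3). The G2/M median ran from -0.02 (without male sample 2) to 0.10 (without male sample 3). The sexes did not overlap for 7 of 30 IDs (23.3%), beside 17.1% of all tested IDs: Mcm2 and Pcna were higher in males, where 8.7% of all tested IDs were, and Mcm4, Gins1, Mki67, Cenpe and Cenpf were lower, where 8.35% were. Leaving out female sample 3, male sample 2 or male sample 3 gave 12, 12 and 15 such IDs, while the share over all tested IDs was 36.8%, 26.6% and 34%.

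Levels were also summed by sample. The 23 S phase IDs summed to 1349.6, 1369 and 1435 CPM in the female pools 1, 2 and 3 and to 1538, 1413 and 1372 in male samples. The 18 G2/M IDs summed to 4246, 4482 and 4113.5 CPM in female samples and to 3434, 4227 and 3855 in male samples. The sexes overlapped in both sums, and male sample 1 had the highest S phase sum and the lowest G2/M sum of the 6. The ratio of the G2/M sum to the S phase sum was 3.15, 3.27 and 2.87 in female and 2.23, 2.99 and 2.81 in male samples, also with overlap. Mki67 and Top2a made up a large part of the G2/M sum. Without that pair the G2/M sum was 1912 to 1981 CPM in female and 1775 to 2007 CPM in male samples, and its ratio to the S phase sum was 1.35 to 1.45 and 1.17 to 1.42.

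**Figure D4:**
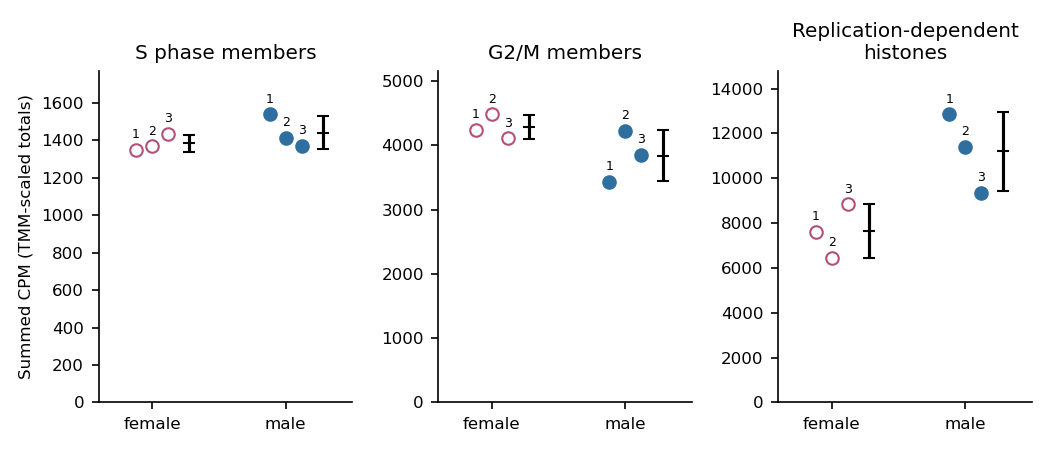
Summed CPM (vertical, from 0) of the S phase genes, the G2/M genes and the replication-dependent histone genes in each sample, with the replicate number above each point and the mean ± SD of 3 samples as a bar beside it. The sexes overlap for the S phase and G2/M sums, while the male histone sums of 9362 to 12845 all lie above the female sums of 6447 to 8847.

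Replication-dependent histone genes, whose mRNAs are made in S phase to package new DNA, had other values than the S phase genes. Their 58 IDs summed to 7612.5, 6447 and 8847 CPM in female samples and to 12845, 11406 and 9362 in male samples. All male samples were above all female samples, and the mean ratio was 1.47. The histone sum was 5.64, 4.71 and 6.17 times the S phase sum in female samples and 8.35, 8.07 and 6.83 times in male samples, which did not overlap. Of 54 tested histone IDs 52 were higher in males, 40 (74.1%) had an unadjusted p under 0.05, beside 11.5% of all tested IDs, and 26 (48.1%) did not overlap, beside 17.1%. The adjusted threshold was passed by 1 of the 54, beside 0.0299% of all tested IDs: H4c2 (NM_178193), a histone H4 gene, had 65.1 ± 14.1 CPM in female and 155.9 ± 15.53 CPM in male samples (SD, n = 3 each), with a log2 fold change of 1.25 (edgeR adjusted p 0.0112). The median log2 fold change over the 54 was 0.65, against 0.04 for the S phase genes. All histone values come from the edgeR test without RUVr factors. No other fit was examined for them, nor were they read with the length trend removed. Over 12624 tested IDs with a length, Spearman's rho of log2 fold change with transcript length was -0.25. The part of length in the histone values was not tested. H4c8, H4c11 and H2ac11 had log2 fold changes of 0.86, 1.35 and 0.97 (edgeR adjusted p 0.157, 0.338 and 0.338). Within each histone family many genes are near-identical copies, and how reads that fit several of them were counted is not stated, so counts of single histone genes may be uncertain, and the difference between the histone and S phase medians was not tested.

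Further cell cycle genes that were listed by function gave no call in the edgeR test without RUVr factors and with low counts removed. No other fit was examined for them. Of 30 other tested S phase IDs 15 were higher and 15 lower in males (median 0.00), with 3 (10%) at an unadjusted p under 0.05, beside 11.5% of all tested IDs. Rfc5 (NM_028128), a subunit of the loader of the Pcna clamp, had 45.2, 38.6 and 52.6 CPM in female and 67.4, 57.6 and 61.4 CPM in male samples, on the same side as Pcna (log2 fold change 0.45, edgeR adjusted p 0.344). Hells (NM_008234), a chromatin remodeller, had 103 ± 13.99 CPM in female and 81.3 ± 4.90 in male samples (edgeR adjusted p 0.385). Of 37 other tested G2/M IDs 13 were higher and 24 lower in males (median -0.04). The sexes did not overlap for 6 of them (16.2%), beside 17.1% of all tested IDs. At an unadjusted p under 0.05 there were 3 (8.11%), beside 11.5%. Neither share was above that of all tested IDs. All of these IDs were lower in males, where 8.35% and 4.82% of all tested IDs were. Foxm1 (NM_008021), a transcription factor of G2/M genes, had 114, 100.3 and 101 CPM in female and 86.0, 75.7 and 85.9 in male samples (log2 fold change -0.35, edgeR adjusted p 0.361). Knl1 (NM_029617), a scaffold of the kinetochore, had 165, 175 and 159.6 CPM in female and 113, 146 and 147 in male samples (log2 fold change -0.30, edgeR adjusted p 0.416). Kif20a (NM_001166406), a motor of cytokinesis, had only 6, 5 and 14 counts in female samples and 1 in each male sample, and no fold is given.

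The partners of cyclin D in G1 lay on opposite sides. Cdk4 (NM_009870) had 28.7, 23.2 and 39.4 CPM in female samples, against 49.8, 50.1 and 43.8 in male samples, a log2 fold change of 0.64 (SE 0.19, edgeR adjusted p 0.341). Cdk6 (NM_009873) had 219, 190.4 and 193 CPM in female and 143, 156 and 166 in male samples, a log2 fold change of -0.37 (SE 0.12, edgeR adjusted p 0.341). Neither overlapped between the sexes. Over the 13 tested IDs of G1 cyclins, their kinases and RB-E2F genes the median was 0.03, with 8 higher and 5 lower in males and 3 (23.1%) at an unadjusted p under 0.05, beside 11.5% of all tested IDs. Of 14 tested IDs of cell cycle inhibitors and exit genes 11 were higher in males (median 0.28, 0 called in the edgeR test without RUVr factors). There was 1 (7.14%) at an unadjusted p under 0.05, beside 11.5% of all tested IDs.

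Markers of the cells that could hold these transcripts gave no call between the sexes in the edgeR test without RUVr factors, and no other fit was examined for them. The 8 tested radial glia IDs had a median log2 fold change of 0.18, and the sexes did not overlap for 3 of them (37.5%), Hes5, Hes1 and Sox2, all higher in males, beside 8.7% of all tested IDs on that side (log2 fold changes 0.77, 0.37 and 0.39). Their sum overlapped, with 3154 to 3492 CPM in female and 3242 to 3605 in male samples. Intermediate progenitor markers overlapped too, with 211 to 222 and 200.2 to 250.4 CPM, although Eomes, their defining marker, had fewer than 10 counts in every sample. Neuron markers summed to 2883 to 3422 CPM in female and 3277 to 4195 in male samples, and mesenchyme and cartilage markers to 19129 to 23590 and 17667 to 26038. At an unadjusted p under 0.05 there were 3 of 8 radial glia IDs (37.5%) and 3 of 10 neuron IDs (30%), all higher in males, beside 6.68% of all tested IDs on that side. For mesenchyme and cartilage there were 3 of 13 IDs (23.1%), all lower, beside 4.82%. On either side the share of all tested IDs was 11.5%. The median log2 fold change was 0.04 for neuron IDs, with 7 higher and 3 lower in males. It was -0.08 for mesenchyme and cartilage IDs, with 4 higher and 9 lower. The sexes did not overlap for 10% of neuron and 7.69% of mesenchyme and cartilage IDs, beside 17.1% of all tested IDs. Among the cell type lists, endothelial markers were the only one whose sums did not overlap, with 620 to 660 CPM in female and 523 to 597 in male samples. Of their 4 tested IDs 3 (75%) did not overlap, all lower in males, beside 8.35% of all tested IDs. The lower male sum came from Cdh5 (301 and 251 CPM on average in female and male samples), Kdr (216 and 192) and Flt1 (67.9 and 58.1). Cldn5 was on the higher side in males (49.0 and 66.3). It was the 1 of 4 endothelial IDs (25%) at an unadjusted p under 0.05, beside 11.5% of all tested IDs. Erythroid markers (756 to 1016 and 633 to 1170 CPM) and microglia markers (168 to 219 and 197 to 235 CPM) overlapped. The part of these cells in the values of the cell cycle genes was not tested.

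Log2 fold changes of the G2/M genes were lower for longer transcripts. Those of the S phase genes showed little relation to length within their narrower range. S phase transcripts spanned 1087 to 4355 nt and G2/M transcripts 1541 to 11137 nt, so the 2 groups cannot be compared over the longest transcripts. Pcna, Cdc20 and Cdk1, on the higher side in males, have longest annotated transcripts of 1518, 1793 and 2886 nt, and Cenpe, Mki67 and Cenpf, on the lower side, have transcripts of 7813, 10075 and 11137 nt. Spearman's rho of log2 fold change with length was -0.49 across the 30 genes, -0.69 across the 16 G2/M genes, -0.10 across the 14 S phase genes and -0.25 across 12624 tested IDs with a length. These values are across genes that share the same 6 libraries and are given without a test. When a smooth trend of level on length was removed from each sample, the log2 fold changes became -0.22 for Mki67 (unadjusted p 0.0991), -0.17 for Cenpf (0.157), -0.26 for Cenpe (0.0451), 0.40 for Pcna (0.0186), 0.35 for Cdk1 (0.0203) and 0.32 for Cdc20 (0.0512). Gins1 joined the genes at an unadjusted p under 0.05, at -0.58 (0.0156). The count of non-overlapping genes went from 7 to 4, while the share over all tested IDs went from 17.1% to 14.9%. The values of Mki67, Cenpf and Cenpe thus moved by more than 1.5 times with this step, and those of Pcna, Cdk1 and Cdc20 by less.

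**Figure D5:**
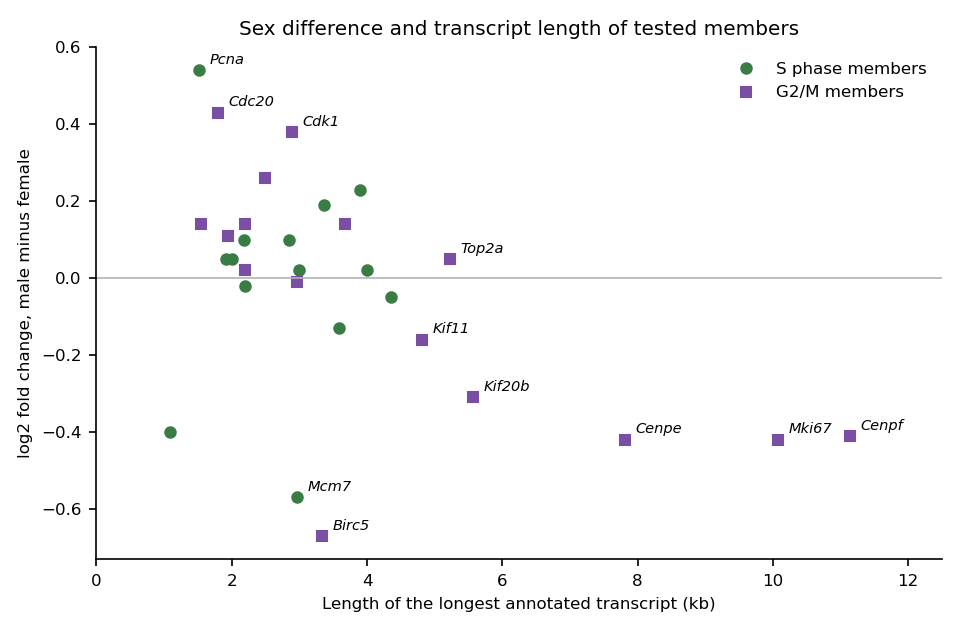
log2 fold change, male minus female, of each tested gene (vertical) against the length of its longest annotated transcript in kb (horizontal), with circles for S phase and squares for G2/M genes. The 3 longest transcripts, Cenpe, Mki67 and Cenpf, lie between -0.42 and -0.41, and the highest values belong to transcripts under 3 kb.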

How the data were processed

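RNA from 3 female and 3 male pools was sequenced as paired reads. According to the study's methods and the submitters' processing notes, reads were trimmed with Trimmomatic 0.32, aligned to mm9 (NCBIM37) with TopHat2 2.1.1 and assembled with Cufflinks 2.2.1, and featureCounts 1.5.1 assigned them to transcripts. The values deposited by the authors were raw counts per RefSeq transcript ID. The treatment of shared and multimapping reads was not stated. The study itself used DESeq2 with RUVr factors after removal of low counts.

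The whole table was fitted after removal of IDs that reached 10 counts in no sample, with edgeR 4.0.16 (R 4.3.3), using TMM and the quasi-likelihood F test, two-sided, and p-values were adjusted with Benjamini-Hochberg. Alternatives were other scalings and filters, DESeq2 1.42.0, RUVr factors, counts summed per gene, removal of the trend on length, a replicate block and leaving out each sample. The scripts were tested on simulated data.

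Symbols came from a RefSeq table on GRCm38.p6, which named 23359 IDs (99.5%). Positions and lengths (longest transcript of the gene) came from GENCODE models on NCBIM37, which covered 21320 IDs (90.8%). Promoters were taken from RefSeq by symbol. Tables and plots used Python 3.11.15, pandas 2.3.3, SciPy 1.17.1 and matplotlib 3.10.9. Intervals are at the 95% level.

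Member genes and the other lists were chosen with earlier results of these data known. Values in every sample are given for members with an unadjusted p under 0.05, for members with no overlap and for the most abundant member of each role. Of the other lists, at most 4 genes each are named, those with the smallest p under 0.05 and no overlap. Any further gene given with values, among them the collagens, Tubb3, the endothelial genes and the other members, was chosen after its values were seen.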

Additional observations from a re-analysis of the deposited data

How the results depend on the processing

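Of 509 log2 fold changes of single genes under 11 alternatives with all samples and 6 that left out 1 sample, 461 kept their direction and their side of the threshold, 9 passed it only in the alternative, 13 rounded to 0.00 and were given no direction, 8 changed sign with all samples and 18 with 1 sample left out. The count of genes called was 0 in the test as reported, 1 with no filter on low counts (Pcna), 4 with 2 RUVr factors in edgeR (Mki67, Cdc20, Cenpe and Cenpf) and 4 with 1 RUVr factor in DESeq2 (Pcna, Mki67, Cenpe and Cenpf). These fits called 276, 475 and 370 IDs in the whole table. With 1 sample left out the count called was 0 each time, the count at an unadjusted p under 0.05 was 3 to 6 (5.61% to 16.1% of all tested IDs) and the non-overlapping count was 8 to 15 (23.3% to 36.8%). The non-overlapping count was 4 with the length trend removed. With upper-quartile factors the S phase sum of female sample 2 was 1424 CPM. The genes that changed sign had log2 fold changes between -0.05 and 0.05 in the test as reported. They were Mcm3 (-0.04), Rrm1 (-0.04), Top2a (-0.01) and Ube2c (-0.04) with upper-quartile factors, Ccna2 (0.01) with no filter, and Ccne1 (-0.04), Chaf1b (-0.05) and Ube2c (-0.06) with the length trend removed. With 1 sample left out, the range was -0.02 to 0.07 for Mcm3, -0.24 to 0.19 for Mcm6, -0.06 to 0.06 for Rrm1, -0.15 to 0.06 for Rrm2, -0.03 to 0.11 for Chaf1b, -0.02 to 0.11 for Top2a, -0.05 to 0.05 for Ccna2 and -0.05 to 0.15 for Ube2c. The replicate block left 0 genes called, 6 at an unadjusted p under 0.05 (8.41% of all tested IDs) and 7 not overlapping (17.1%). The replicate numbers are no pairing given by the labels, deviations of same-numbered samples from their group means correlated at -0.29, -0.06 and -0.20, and no female sample correlated best with the male sample of its own number. The cause of each change was not tested. The tested genes with the fewest counts were Mcm7, Mcm6, Birc5 and Gins1.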
